A study of Zea mays with 45 samples.

Results

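The maize histone H1 genes hon101 and his1 were followed along the growing leaf and through a night that was lengthened to starve the plants of carbon. Their members are all probe sets, the groups of short probes that an Affymetrix array sums into 1 value, whose gene identifier in the annotation carries hon101 or his1 as a symbol or synonym. The rule found 7 of the 17555 maize probe sets. They represent 2 of the 1108 genes that the annotation names. hon101 (LOC541973) has 1 probe set, Zm.12583.1.A1_at, and his1 (LOC542385, with H1 as a further synonym) has 6, which are given apart throughout.

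All plants were of the genotype SL and grew under 14 h of light and 10 h of night. Sampling took place when the day ended (ED), when the night ended (EN) and 6, 14 and 24 h into an extended night, in which night conditions were kept on. Each leaf was cut into a division zone (0 to 1.5 cm above the ligule), an elongation zone (3 to 4.5 cm) and a mature zone, which gives 15 groups, and each replicate was a pool of 5 plants. Of 45 arrays, 42 hold values. The elongation zone at ED and the mature zone at ED and 6 h have 2 arrays each, and the other 12 groups have 3. With these light and night hours, 14 h of extended night falls at the clock time of the end of the day, and 24 h at that of the end of the night.

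Linker histone H1 binds the DNA that enters and leaves the nucleosome, the spool of core histones around which DNA is wrapped, and favours compact chromatin. Core histones are made mostly while DNA is copied, so their transcripts mark dividing tissue. H1 variants also occur in tissue that no longer divides, and in Arabidopsis and tomato some of them are induced by lack of water. A grass leaf grows from its base: cells divide there, lengthen further along and then mature into photosynthetic tissue.

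Values are log2 signals as the authors deposited them, so a difference of 1 is a factor of 2. Differences are given ± SE from a limma fit over all 17555 probe sets, and a probe set passed at a Benjamini-Hochberg adjusted p under 0.05. Shares of all probe sets that passed count both directions unless a direction is given. Probes differ in how brightly they bind, so levels of different probe sets were not set against each other. In pieces of whole tissue, fewer cells of a type and less RNA per cell cannot be told apart.

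All 6 markers of mature leaf were higher in every array of the mature zone than in any array of the growth zones. pep1, the C4 carboxylase of mature leaf, lay at 13.48 to 14.41 in the mature zone, against at most 7.78 in the elongation and 6.92 in the division zone. Of the markers of elongating tissue, the expansin expB4 was highest in the elongation zone (8.92 to 10.24, against 6.89 to 8.93 in the division zone), while glu2 overlapped between the mature and elongation zones. kn1, a meristem gene, lay between 5.29 and 6.01 in all zones. This is below 6.34, the level under which 95% of the values of the 66 reporter probe sets (transgenes with no maize target) fell. EN replicate 3 of the mature zone differed from the rest of its group, with the cyclin cyc3 at 8.01, against at most 6.03 in the other replicates, and the DNA clamp gene pcna1 at 9.68, against at most 7.52. Changes of named genes against EN in the mature zone are given with and without it. Zone steps at EN, and differences between zones in these changes, are mostly given with it alone. Median signals were 7.39 in the mature, 7.59 in the elongation and 7.61 in the division zone.

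In the division zone hon101 stayed high at all 5 times, in the elongation zone it was lowest after 24 h of extended night, and in the mature zone it was lowest at the end of the day and highest after 24 h of extended night. In the division zone it measured 12.69, 12.63 and 12.60 at the end of the day. It measured 12.68, 12.56 and 12.78 there at the end of the night and 12.73, 12.87 and 12.79 at 6 h. At 14 h the division zone had 12.53, 12.40 and 12.42, all below the arrays at 6 h, and at 24 h 12.68, 12.08 and 12.55. Replicate 2 at 24 h was the lowest of these 15 arrays.

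In the elongation zone hon101 had 12.46 and 12.27 at the end of the day, and 12.16, 12.27 and 12.03 at the end of the night. It had 12.57, 12.23 and 12.32 at 6 h, and 12.13, 12.32 and 11.94 at 14 h. At 24 h the values were 11.30, 11.51 and 11.27, all below every other array of that zone.

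In the mature zone hon101 had 9.85 and 10.21 at the end of the day, the lowest values of the 42 arrays. It had 11.20, 11.04 and 11.66 at the end of the night, and 10.79 and 10.77 at 6 h. It then had 11.93, 11.95 and 12.00 at 14 h, and 12.16, 12.14 and 12.14 at 24 h. None of the 5 times overlapped with another in this zone, and the 3 arrays at 24 h lay above all 3 of the elongation zone at that time.

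**Figure D1:**
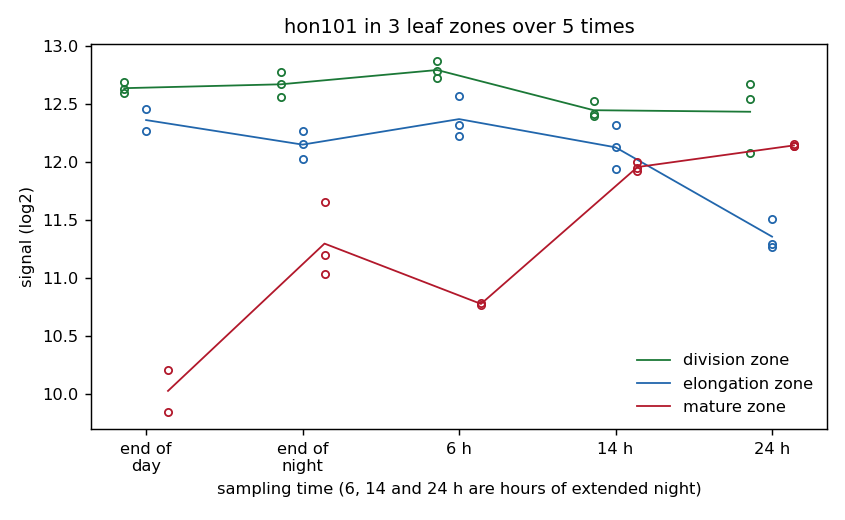
Signal of hon101 (log2, vertical axis) in each array at the 5 sampling times, with lines through the group means of the division, elongation and mature zones. The mature zone runs from 9.85 and 10.21 at the end of the day to 12.14 to 12.16 at 24 h of extended night, and the elongation zone drops to 11.27 to 11.51 at 24 h.

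Ordered by their means, the 15 groups ran from 12.80 in the division zone at 6 h to 10.03 in the mature zone at ED. The division zone held ranks 1 to 5. Of the 14 pairs of neighbours in this order, 10 overlapped. The 4 that did not were the division zone at the end of the day over the same zone at 14 h, the mature zone at 14 h over the elongation zone at 24 h, the mature zone at EN over 6 h, and 6 h over ED in the mature zone. Zones held 50.78% of the variance of hon101, times within zones 45.63% and replicates 3.58%. For the his1 probe sets, times held at most 28.05%.

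Over the mean of the 5 times, hon101 fell by 0.52 ± 0.06 in the elongation zone against the division zone (adjusted p = 3.8e-09). None of the 6 his1 probe sets passed in this step, and their differences lay between -0.05 and 0.06. This is 1 of 7 members, where 62.9% of all probe sets passed. At single times hon101 passed at EN (-0.52 ± 0.13, adjusted p = 0.0017) and 6 h (-0.43 ± 0.13, adjusted p = 0.0087). The difference was -0.28 ± 0.15 at ED (adjusted p = 0.15) and -0.32 ± 0.13 at 14 h (adjusted p = 0.058), neither of which passed. At 24 h it was -1.08 ± 0.13 (adjusted p = 4.3e-08), again as the only member of 7, beside 43.2% of all probe sets.

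From the elongation to the mature zone, hon101 fell by 0.83 ± 0.06 over the mean of the 5 times (adjusted p = 7.6e-14), but that mean spans opposite directions. At the end of the day the difference was -2.33 ± 0.16 (adjusted p = 3.3e-14). The differences were -0.86 ± 0.13 at the end of the night, -1.59 ± 0.15 at 6 h and -0.17 ± 0.13 at 14 h, and the last of these did not pass (adjusted p = 0.24). At 24 h the mature zone had more hon101 than the elongation zone, by 0.79 ± 0.13 (adjusted p = 3.2e-06). All 7 members passed at the end of the day, where 72.1% of all probe sets did, and at 24 h, where 80.2% did. At 24 h the reporter probe sets differed by a median of 0.29, with a range of -0.08 to 0.88, and 44 of 66 passed as higher. The difference of hon101 lies inside that range, and the part of the shift of the reporters in it was not tested.

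Over the regular night, hon101 rose by 1.27 ± 0.15 in the mature zone at EN against ED (adjusted p = 2e-08). It was the only one of 7 members that passed, where 40.5% of all probe sets did. Without EN replicate 3 the rise was 1.09 ± 0.14, and then Zm.6393.4.A1_a_at of his1 passed too (0.36 ± 0.11, adjusted p = 0.0093). The division zone differed by 0.03 ± 0.13 and the elongation zone by -0.21 ± 0.15, and neither passed.

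After 6 h of extended night hon101 fell by 0.52 ± 0.15 in the mature zone, against the end of the night (adjusted p = 0.0054). Without EN replicate 3 this difference was -0.34 ± 0.14 and did not pass (adjusted p = 0.064). The 3 his1 probe sets Zm.6393.1.A1_x_at, Zm.6393.2.S1_x_at and Zm.6393.4.S1_x_at rose in the same step, and without that array they rose by 0.71, 0.84 and 0.90. In all, 3 members rose and 1 fell, where 39.1% of all probe sets passed. From 6 to 14 h hon101 rose by 1.18 ± 0.15 in the mature zone (adjusted p = 1e-07), again alone among the 7, where 36.3% of all passed. In the division zone 3 of the 7 members fell in that step, where 33.1% of all passed. The elongation zone had 0 of 7, where 35.3% did.

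At matched clock times hon101 rose in the mature zone in both comparisons and in neither growth zone. After 14 h of extended night, against the end of the day, hon101 rose by 1.93 ± 0.15 in the mature zone (adjusted p = 5.3e-13). It differed by -0.23 ± 0.15 in the elongation zone (adjusted p = 0.21) and by -0.19 ± 0.13 in the division zone (adjusted p = 0.26). Of the 7 members 6 rose in the mature zone, where 60.8% of all probe sets passed, 34% as higher and 26.8% as lower. In the elongation and division zones 0 of 7 passed by limma, where 45.5% and 44.6% of all did. At an unadjusted p under 0.05 the counts were 0 of 7 in both zones. The change in the mature zone exceeded that in the elongation zone by 2.16 ± 0.21 (adjusted p = 5.3e-10) and that in the division zone by 2.12 ± 0.20 (adjusted p = 1.7e-10). Both comparisons use the same mature arrays.

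After 24 h of extended night, against the end of the night, hon101 rose by 0.84 ± 0.13 in the mature zone (adjusted p = 1.5e-06), and by 1.02 without EN replicate 3. It fell by 0.80 ± 0.13 in the elongation zone (adjusted p = 8.7e-06). In the division zone the difference was -0.24 ± 0.13 (adjusted p = 0.17). Of the 7 members, 2 rose and 1 fell in the mature zone, where 57.9% of all probe sets passed. In the elongation zone 4 fell (42.4% passed, 20.6% as lower), and in the division zone 2 fell (32.8% passed, 15% as lower). The change of hon101 in the mature zone exceeded that in the elongation zone by 1.64 ± 0.19 (adjusted p = 7.5e-09) and that in the division zone by 1.08 ± 0.19 (adjusted p = 1.2e-05). The changes of the elongation and division zones differed by -0.56 ± 0.19, which did not pass (adjusted p = 0.093). Without replicate 2 of 24 h in the division zone this difference was -0.74 and passed (adjusted p = 0.011).

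The step of hon101 from 14 to 24 h was -0.77 ± 0.13 in the elongation zone (adjusted p = 5.4e-05), where 2 of 7 members fell and 22.1% of all probe sets passed. The mature zone differed by 0.18 ± 0.13 (adjusted p = 0.31), while 3 of the 7 members, all his1, fell there, where 30.6% of all passed. By an F test over the 5 times, hon101 changed in the mature zone (adjusted p = 5e-14, 77.4% of all probe sets passed) and in the elongation zone (adjusted p = 3.2e-07, 57.5%). It did not pass in the division zone (adjusted p = 0.082), where 52.7% did.

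The 6 his1 probe sets fell into 2 kinds. Zm.6393.1.A1_x_at, Zm.6393.2.S1_x_at and Zm.6393.4.S1_x_at are bright, with means over all arrays of 10.50, 10.52 and 10.36. Zm.6393.4.A1_at, Zm.6393.4.A1_x_at and Zm.6393.4.A1_a_at are dim, with means of 7.11, 6.48 and 3.70. The last of these stayed below 6.34 in all groups, with a highest group mean of 4.13, beside a median of 4.04 over the reporter probe sets. Zm.6393.4.A1_x_at lay near 6.34 in the growth zones, with group means of 6.12 to 6.39 in the division and 6.21 to 6.40 in the elongation zone. In the mature zone its group means were 6.73 to 7.10. All 4 probe sets whose names hold "6393.4" are credited to the same source sequence in the annotation. The dim ones among them hold "A1" in their names and the bright one "S1", while the bright Zm.6393.1.A1_x_at also holds "A1". The part of this difference in design in the levels and steps was not tested. In Affymetrix names "_x" marks probes that may also bind other transcripts, and 4 of the 6 his1 probe sets carry it, among them all 3 bright ones. Signal from other H1 genes can therefore not be told apart from that of his1 in these probe sets.

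The bright probe sets were lower in the mature zone and the dim ones higher. In Zm.6393.2.S1_x_at, the brightest, 13 arrays of the mature zone ran from 9.17 to 10.56 with a median of 10.01. The 14 arrays of the elongation zone ran from 10.42 to 11.17 (median 10.83), and the 15 of the division zone from 10.22 to 11.25 (median 10.78). The mature zone thus overlapped with both growth zones in its upper values. In Zm.6393.4.A1_at the mature zone ran from 7.15 to 7.84 (median 7.45), the elongation zone from 6.68 to 7.16 (median 7.0) and the division zone from 6.69 to 7.10 (median 6.92). Here the mature zone overlapped with the elongation zone by its lowest array and lay above the whole division zone.

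Against the elongation zone, the mature zone differed by -0.83 ± 0.06 in Zm.6393.1.A1_x_at (adjusted p = 1.6e-13). For Zm.6393.2.S1_x_at the difference was -0.91 ± 0.06 (adjusted p = 2.2e-15), and for Zm.6393.4.S1_x_at it was -1.20 ± 0.10 (adjusted p = 1.8e-12). The dim Zm.6393.4.A1_at was higher in the mature zone by 0.46 ± 0.05 (adjusted p = 2.9e-09). Zm.6393.4.A1_x_at was higher by 0.51 ± 0.06 (adjusted p = 2.4e-09) and Zm.6393.4.A1_a_at, below 6.34 in both zones, by 0.38 ± 0.05 (adjusted p = 6.4e-09). With hon101, 4 members fell and 3 rose, in a step where 91.0% of all probe sets passed. Of the 66 reporter probe sets 53 passed as higher in the mature zone and 0 as lower, with a median difference of 0.24 and a range of -0.11 to 0.78. The 3 dim his1 differences lie inside this range and the 3 bright ones and that of hon101 outside it. The part of the shift of the reporters in the dim probe sets was not tested.

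**Figure D2:**
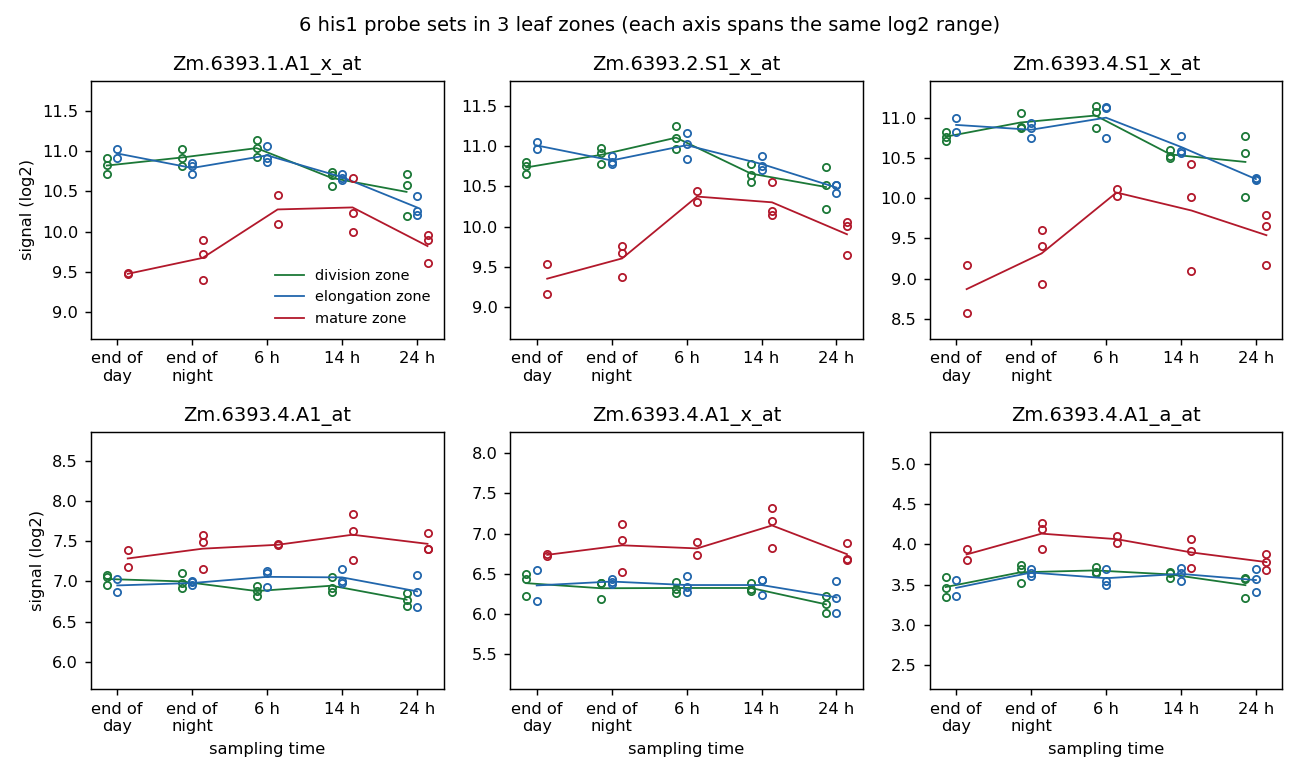
Signal (log2) of each his1 probe set in each array at the 5 sampling times, with lines through the zone means; each panel spans the same range of log2 units around its own centre. The mature zone lies below the division and elongation zones in the 3 upper panels, by means of up to -1.20 against the elongation zone, and above them in the 3 lower panels, by 0.38 to 0.51.

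The opposite steps were tested on the differences between probe sets within each array, with exact two-sided permutation tests that exchanged zones within each time. The family held 30 tests, 15 pairs of probe sets in each of 2 steps. Zm.6393.4.A1_a_at is left out of the counts, since it lay below 6.34 in all groups, which leaves 10 pairs in each step. Zm.6393.4.A1_x_at was kept, though it was clear of 6.34 in the mature zone alone, so its pairs rest in part on values near that level. For mature minus elongation, all 6 pairs of a bright and a dim probe set differed, by 1.3 to 1.7. Each p was 2.1e-06, the smallest these permutations can give (adjusted p = 6.9e-06). The bright and dim kinds split as the directions of this step do, so these pairs are no separate evidence for the split. Within the kinds, 2 of 4 pairs differed. The step of Zm.6393.1.A1_x_at exceeded that of Zm.6393.4.S1_x_at by 0.37 (adjusted exact permutation p = 0.00016), and that of Zm.6393.2.S1_x_at exceeded it by 0.28 (adjusted exact permutation p = 0.00022). For elongation minus division, 0 of 6 pairs of a bright and a dim probe set differed. There, 1 of 4 pairs within the kinds did, Zm.6393.1.A1_x_at below Zm.6393.2.S1_x_at by a difference of -0.09 (adjusted exact permutation p = 0.025).

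Across the 42 arrays the bright probe sets correlated with each other at a Pearson r of 0.97, and with the dim ones at -0.57 to -0.66. These arrays share zones and times, and the negative values came with the zones. Within the division zone Zm.6393.2.S1_x_at correlated with Zm.6393.4.A1_at at 0.31, within the elongation zone at 0.25 and within the mature zone at 0.31. The pair Zm.6393.4.A1_at and Zm.6393.4.A1_x_at correlated at 0.94.

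The bright his1 probe sets of the mature zone were highest at 6 and 14 h, and hon101 at 14 and 24 h. In Zm.6393.2.S1_x_at the mature zone had 9.17 and 9.54 at the end of the day, 9.68, 9.38 and 9.76 at the end of the night, and 10.44 and 10.31 at 6 h. It had 10.15, 10.56 and 10.20 at 14 h and 10.01, 9.65 and 10.06 at 24 h. The arrays at 6 and 14 h lay above all others of the zone. Zm.6393.1.A1_x_at had 9.47 and 9.48 at the end of the day, 9.72, 9.40 and 9.90 at the end of the night, and 10.45 and 10.10 at 6 h. At 14 h it had 10.00, 10.67 and 10.23, and at 24 h 9.89, 9.61 and 9.96, so that the arrays at 6 and 14 h were again the highest. Zm.6393.4.S1_x_at had 8.57 and 9.17, then 9.41, 8.93 and 9.60, then 10.11 and 10.03 at the same first 3 times. At 14 h it had 9.10, 10.43 and 10.01, where replicate 1 lay within the end of the night, and at 24 h 9.79, 9.17 and 9.66.

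At 6 h of extended night against the end of the night, the mature zone rose by 0.60 ± 0.15 in Zm.6393.1.A1_x_at (adjusted p = 0.0019), by 0.77 ± 0.14 in Zm.6393.2.S1_x_at (adjusted p = 5.1e-05) and by 0.76 ± 0.24 in Zm.6393.4.S1_x_at (adjusted p = 0.012). hon101 fell in that same step, a call that rested on 1 array. From 14 to 24 h, 2 of these 3 probe sets fell in the mature zone, Zm.6393.1.A1_x_at by 0.48 ± 0.14 (adjusted p = 0.0069) and Zm.6393.2.S1_x_at by 0.39 ± 0.13 (adjusted p = 0.017). The difference of Zm.6393.4.S1_x_at was -0.30 ± 0.22 (adjusted p = 0.3).

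The rise in the mature zone at 14 h against ED was 0.83 ± 0.15 in Zm.6393.1.A1_x_at (adjusted p = 1.9e-05), 0.95 ± 0.14 in Zm.6393.2.S1_x_at (adjusted p = 7.3e-07) and 0.98 ± 0.24 in Zm.6393.4.S1_x_at (adjusted p = 0.00078). Without ED replicate 1 the last of these was 0.67 and did not pass (adjusted p = 0.056). In these 3 probe sets the rise exceeded the change of the elongation zone by 1.12, 1.18 and 1.25 and that of the division zone by 0.98, 1.02 and 1.19, with SEs of 0.19 to 0.34. All 6 values passed. With hon101, 4 of 7 members passed both ways, beside 44.5% of all probe sets against the elongation zone and 52.2% against the division zone.

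At 24 h against the end of the night, Zm.6393.2.S1_x_at rose by 0.30 ± 0.13 in the mature zone (adjusted p = 0.042). This call was lost without EN replicate 2 (0.19), replicate 1 of 24 h (0.25) or replicate 3 of 24 h (0.23). The reporter probe sets ranged from -0.37 to 0.5 in this comparison. Zm.6393.1.A1_x_at differed by 0.14 ± 0.14 (adjusted p = 0.38) and Zm.6393.4.S1_x_at by 0.23 ± 0.22 (adjusted p = 0.38). Without EN replicate 3 Zm.6393.2.S1_x_at had 0.38 ± 0.14 (adjusted p = 0.021). Zm.6393.1.A1_x_at then had 0.26 ± 0.15 and Zm.6393.4.S1_x_at 0.37 ± 0.24, and neither passed. In the elongation zone Zm.6393.2.S1_x_at had 10.42, 10.52 and 10.52 at 24 h, against 10.88, 10.81 and 10.78 at the end of the night, with no overlap. It fell by 0.34 ± 0.13 (adjusted p = 0.031), a call lost when any array but EN replicate 3 was left out, with values from -0.36 to -0.30. Zm.6393.1.A1_x_at fell by 0.49 ± 0.14 (adjusted p = 0.0035) and Zm.6393.4.S1_x_at by 0.61 ± 0.22 (adjusted p = 0.021). The last call was lost without EN replicate 1 (-0.60) or 2 (-0.57) or replicate 2 of 24 h (-0.60).

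In the division zone Zm.6393.2.S1_x_at had 10.74, 10.22 and 10.52 at 24 h, against 10.98, 10.92 and 10.78 at the end of the night. It fell by 0.40 ± 0.13 (adjusted p = 0.014), and Zm.6393.1.A1_x_at fell by 0.43 ± 0.14 (adjusted p = 0.015). Both calls were lost without replicate 2 of 24 h, at -0.27 and -0.28. The first was also lost without EN replicate 1 (-0.36), and the second without EN replicate 2 (-0.38). Zm.6393.4.S1_x_at differed by -0.49 ± 0.22 and did not pass (adjusted p = 0.081). Without replicate 1 of 24 h it passed, with a difference of -0.65.

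Between zones, the changes at 24 h of the 3 bright probe sets exceeded those of the elongation zone by 0.63 ± 0.19, 0.64 ± 0.18 and 0.84 ± 0.30 in the order given above (adjusted p = 0.0063, 0.0035 and 0.022). With hon101 these were the 4 of 7 members that passed, where 48.7% of all probe sets did. The reporter probe sets ranged from -0.34 to 0.56 there. Against the division zone, Zm.6393.1.A1_x_at differed by 0.57 ± 0.19 (adjusted p = 0.014) and Zm.6393.2.S1_x_at by 0.70 ± 0.18 (adjusted p = 0.0014). In this comparison the reporter probe sets ranged from -0.23 to 0.69, and 10 of 66 passed as higher. The value of 0.57 lies inside that range and 0.70 just above it. Zm.6393.4.S1_x_at differed by 0.72 ± 0.30 and did not pass (adjusted p = 0.051), so 3 of 7 members passed, beside 49.5% of all. It passed without EN replicate 3 (0.86) or replicate 2 of 24 h (0.90) in the mature zone, and without replicate 1 of 24 h in the division zone (0.88). Without EN replicate 2 in the mature zone, the value of Zm.6393.4.S1_x_at against the elongation zone was 0.65 and did not pass (adjusted p = 0.084). It did not pass without replicate 1 of 24 h in the mature zone either, at 0.72. Zm.6393.1.A1_x_at against the division zone was lost without EN replicate 2 in the mature zone (0.43) or replicate 2 of 24 h in the division zone (0.42). Between the elongation and division zones, 0 of 7 members passed at 24 h and 0 of 7 at 14 h by limma, where 3.61% and 6.56% of all probe sets did. At an unadjusted p under 0.05 it was 1 of 7 at 24 h, hon101, and 0 of 7 at 14 h.

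**Figure D3:**
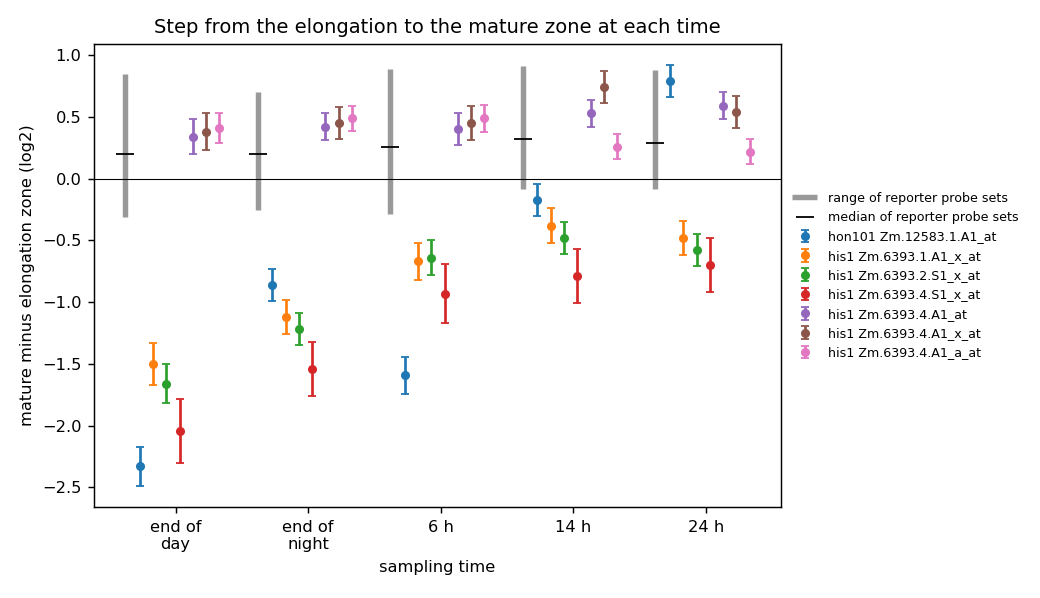
Difference of the mature minus the elongation zone (log2 ± SE, vertical axis) for each of the 7 members at the 5 sampling times, beside the range and median of the 66 reporter probe sets. The difference of hon101 goes from -2.33 at the end of the day to 0.79 at 24 h of extended night, while the 3 bright his1 probe sets stay below 0 and the 3 dim ones above it at every time.

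The step from the elongation to the mature zone kept its sign in each his1 probe set at all 5 times, and each passed each time. Of all probe sets 72.1% passed at ED, 76.2% at EN, 78.2% at 6 h, 80.6% at 14 h and 80.2% at 24 h. For Zm.6393.2.S1_x_at it was -1.66 ± 0.16 at the end of the day and -1.22 ± 0.13 at the end of the night. It was -0.64 ± 0.14 at 6 h, -0.48 ± 0.13 at 14 h and -0.58 ± 0.13 at 24 h. The dim Zm.6393.4.A1_x_at had 0.38 ± 0.15 at ED, 0.45 ± 0.13 at EN, 0.45 ± 0.14 at 6 h, 0.74 ± 0.13 at 14 h and 0.54 ± 0.13 at 24 h. Each of these values lies inside the range of the reporter probe sets at its time, whose highest differences were 0.7 to 0.91.

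The dim his1 probe sets moved less with time than the bright ones. Their group means in the mature zone spread over 0.29 to 0.37, against 0.83 to 1.20 in the bright ones. In the mature zone Zm.6393.4.A1_at rose at 14 h against the end of the day by 0.29 ± 0.13 (adjusted p = 0.046) and Zm.6393.4.A1_x_at by 0.37 ± 0.14 (adjusted p = 0.024). Zm.6393.4.A1_at had 7.84, 7.63 and 7.27 at 14 h, against 7.39 and 7.18 at the end of the day. Zm.6393.4.A1_x_at had 7.32, 7.16 and 6.82, against 6.72 and 6.75. The first groups overlap and the second do not. The call of Zm.6393.4.A1_at was lost without ED replicate 2 (0.19) or replicate 1 (0.16) or 2 (0.27) of 14 h. That of Zm.6393.4.A1_x_at was lost without either array of the end of the day (0.36 and 0.38) and without replicate 1 (0.26) or 2 (0.34) of 14 h. In this comparison 21 of 66 reporter probe sets rose and 0 fell, with a median difference of 0.13 and a highest of 0.76. From 14 to 24 h the group mean of Zm.6393.4.A1_x_at in the mature zone went from 7.103 to 6.745. It was 1 of the 3 his1 probe sets that fell in that step, where the reporter probe sets ranged from -0.4 to 0.15.

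Zm.6393.4.A1_a_at fell at 24 h against the end of the night in the mature zone, by 0.35 ± 0.10 (adjusted p = 0.0021), with 3.88, 3.78 and 3.68 at 24 h, against 4.19, 4.27 and 3.94. The groups do not overlap, and all values lie below 6.34. With each array of these groups left out in turn it passed each time, with values from -0.45 to -0.29. With the compared groups alone it did not pass (adjusted p = 0.061). At 14 h against the end of the night its mature group mean went from 4.135 to 3.898. Without EN replicate 3 that difference was -0.33 ± 0.10 (adjusted p = 0.0063). By the F test over 5 times none of the 3 dim probe sets passed in the division or elongation zone, and in the mature zone Zm.6393.4.A1_a_at passed (adjusted p = 0.011) while Zm.6393.4.A1_at (0.27) and Zm.6393.4.A1_x_at (0.065) did not. The 3 bright ones passed in the mature and elongation zones. In the division zone Zm.6393.1.A1_x_at (adjusted p = 0.0082) and Zm.6393.2.S1_x_at (0.0013) passed and Zm.6393.4.S1_x_at (0.093) did not.

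hon101 and the bright his1 probe sets moved alike in the elongation zone and less so in the mature zone. Over the 14 arrays of the elongation zone hon101 correlated with the 3 bright probe sets at a Pearson r of 0.93 to 0.97, and over the 15 of the division zone at 0.81 to 0.96. Over the 13 arrays of the mature zone r was 0.39 to 0.47. Arrays of 1 group share time and zone, so these are descriptions.

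Other histone genes place the H1 genes among their family. hon102 (LOC541964, also his1a), a further H1 gene, measured 11.30 and 11.48 in the mature zone at ED, 11.30, 11.17 and 11.69 at EN and 11.32 and 11.18 at 6 h. It had 11.77, 11.83 and 11.88 at 14 h and 11.73, 11.71 and 11.82 at 24 h. All arrays at 14 and 24 h lay above those of the 3 earlier times. hon102 rose by 0.43 ± 0.09 at 14 h against the end of the day (adjusted p = 0.00011) and by 0.37 ± 0.08 at 24 h against the end of the night (adjusted p = 0.00024). Both values lie inside the ranges of the reporter probe sets in the mature zone, -0.21 to 0.76 at 14 h and -0.37 to 0.5 at 24 h. Without EN replicate 3 the rise of hon102 at 24 h was 0.52 ± 0.07 (adjusted p = 7.4e-08), while the reporter range given includes that array. The part of the shift of the reporters in these rises was not tested. In the elongation and division zones neither comparison passed for hon102, with differences from -0.11 to 0.13. Across zones it fell by 0.89 ± 0.04 from the elongation to the mature zone and by 0.21 ± 0.04 from the division to the elongation zone.

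his2b5, a core histone H2B gene, fell in the growth zones under the long night. It fell at 14 h against the end of the day by 1.58 ± 0.46 in the elongation zone (adjusted p = 0.0049) and by 1.19 ± 0.41 in the division zone (adjusted p = 0.017), and at 24 h against the end of the night by 1.65 ± 0.41 in the elongation zone (adjusted p = 0.0013). In the mature zone his2b5 differed by -0.66 ± 0.41 at 24 h (adjusted p = 0.17). Its value was 10.37 in EN replicate 3, against at most 7.53 in the other arrays of that group, and without that array the difference was 0.32 ± 0.24 (adjusted p = 0.26). From the elongation to the mature zone his2b5 fell by 3.17 ± 0.20.

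cenH3, the histone H3 of the centromere, fell in the mature zone at 24 h against the end of the night by 1.24 ± 0.28 (adjusted p = 0.00028), in its brighter probe set. EN replicate 3 had 8.47, against 6.78 and 6.73 in the other 2, and without it the difference was -0.66 ± 0.21 (adjusted p = 0.0081). It fell at 14 h against the end of the day by 1.07 ± 0.31 in the mature, 0.86 ± 0.31 in the elongation and 0.78 ± 0.28 in the division zone. Of the 5 histone genes on the list, each by its brightest probe set, 5 fell from the elongation to the mature zone (median -0.91, beside 0.13 over all probe sets). All 5 passed there, where 91.0% of all probe sets did. In the mature zone at 24 h 3 rose and 1 fell, cenH3, beside 57.9% of all probe sets that passed. The 3 were hon101, hon102 and his1. his1 counts through Zm.6393.2.S1_x_at, whose call was lost without any of 3 arrays, while its other bright probe sets did not pass.

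**Figure D4:**
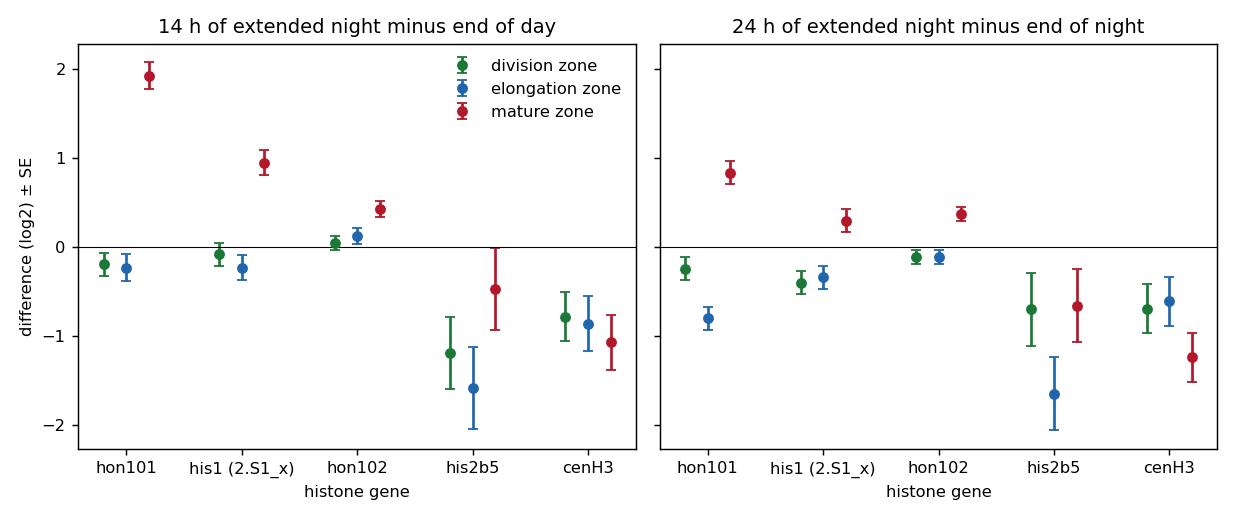
Differences (log2 ± SE, vertical axis) of 5 histone genes in each zone, at 14 h of extended night against the end of the day (left) and at 24 h of extended night against the end of the night (right). Each gene is shown by its brightest probe set. The 3 H1 genes hon101, his1 and hon102 are above 0 in the mature zone in both panels. They lie at 1.93, 0.95 and 0.43 on the left and 0.84, 0.30 and 0.37 on the right. his2b5 and cenH3 are below 0 in all zones. Without EN replicate 3 the mature values on the right are 1.02, 0.38 and 0.52 for the 3 H1 genes in that order. They are then 0.32 for his2b5 and -0.66 for cenH3.

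The other chromatin genes were described with a list of 51, each by its brightest probe set. From the elongation to the mature zone 33 fell and 12 rose, with a median of -0.54 beside 0.13 over all probe sets, 91.0% of which passed. The 6 with the greatest differences were nfd101 (-4.62 ± 0.30), met2 (-3.16 ± 0.19), nfd106 (-3.13 ± 0.24), hmg2 (-3.13 ± 0.12), nfa103 (-2.92 ± 0.12) and nfa101 (-2.68 ± 0.13), all of which fell. met2 encodes a DNA methyltransferase, nfd101, nfd106 and hmg2 proteins of the high mobility group, and nfa101 and nfa103 nucleosome assembly proteins. At 24 h against the end of the night the list had 22 genes higher and 10 lower in the mature zone (median 0.15, beside 0.04 over all probe sets), 12 higher and 17 lower in the elongation zone and 6 higher and 8 lower in the division zone. Of all probe sets 57.9%, 42.4% and 32.8% passed in these zones. Without EN replicate 3 the mature zone had 28 higher and 6 lower (median 0.28, beside 57.2% of all probe sets that passed). Of the 6 named genes 3 fell in the mature zone in that comparison, met2 (-1.17 ± 0.40), nfd106 (-1.20 ± 0.49) and nfa103 (-0.95 ± 0.25). None of these 3 calls held without EN replicate 3, where met2 had -0.18 ± 0.21, nfd106 -0.02 ± 0.28 and nfa103 -0.41 ± 0.18 (adjusted p = 0.5, 0.96 and 0.057).

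The cell cycle list of 17 genes gives the state of the dividing tissue beside the H1 values. From the elongation to the mature zone 14 fell and 2 rose (median -1.62, where 91.0% of all probe sets passed), among the fallen cyc3 (-3.61 ± 0.16), pcna2 (-3.44 ± 0.26), MCM7 (-2.85 ± 0.19), MCM6 (-2.84 ± 0.20), cyc1 (-2.28 ± 0.11) and cdc2 (-1.98 ± 0.06). In the mature zone at 14 h against the end of the day, where hon101 and the bright his1 probe sets rose, 4 of the 17 rose and 1 fell (median 0.20, beside 0.11 over all probe sets, 60.8% of which passed). cdc2, the kinase that drives entry into mitosis, rose there by 1.62 ± 0.14 (adjusted p = 4.4e-12) and by 0.90 ± 0.12 at 24 h against the end of the night (adjusted p = 1e-07). cyc3 differed by 0.66 ± 0.36 at 14 h (adjusted p = 0.12) and fell by 1.51 ± 0.32 at 24 h (adjusted p = 0.00015). Without EN replicate 3, the array with cyc3 at 8.01, cyc3 had -0.81 ± 0.23 (adjusted p = 0.0031) and cdc2 1.12 ± 0.11 at 24 h. Of the dividing-tissue markers, pcna1 did not pass in either comparison (0.70 ± 0.37 at 14 h and 0.51 ± 0.33 at 24 h) and kn1 stayed below 6.34. Without EN replicate 3 pcna1 rose at 24 h, by 1.31 ± 0.19 (adjusted p = 6.2e-07). In that comparison 5 of the 17 genes rose and 5 fell (median -0.19), and without the array 7 rose and 3 fell (median 0.36). In the elongation zone at 24 h, where hon101 and 3 his1 probe sets fell, 8 of the 17 fell and 5 rose, beside 42.4% of all probe sets. The part of a change in the number of dividing cells in the H1 values was not tested.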

How the data were processed

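RNA of 42 leaf samples was measured on the Affymetrix maize array. The authors deposited log2 signals. Per the submitters' processing notes these come from RMA, a method that corrects background, normalizes arrays together and sums probes into probe sets. Which RMA version and settings they used is not given in the sources used here. Columns of 3 further samples hold no values. The number of arrays limits the precision, and each replicate is a pool of 5 plants. No label says that pools were grown apart, so p-values cover only the spread among them.

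The values were used as deposited. Leaving out 113 control and 66 reporter probe sets, 17555 were fitted by group means of the 15 groups with lmFit and eBayes in limma 3.58.1 under R 4.3.3 (27 residual and 4 prior degrees of freedom), with Benjamini-Hochberg adjustment within each comparison. Zone steps are equal-weight means over the 5 times. Gene names come from the platform annotation, which gives 1 gene for 1452 probe sets, several for 1 and none for 16102, and from RefSeq gene identifiers of the assembly Zm-B73-REFERENCE-NAM-5.0. Further histone, chromatin and cell cycle genes were taken by symbol and synonym, with up to 8, 6 and 6 named by the greatest difference between the mature and elongation zones, and each gene was counted by its brightest probe set; 11 symbol matches to other proteins were left out. The members and lists were chosen with earlier results of these data known. For likeness, the 5 other genes with the highest Pearson r over the 15 group means were named. Exact permutation tests were run in Python 3.11.15.

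On simulated data, with 17555 probe sets and known changes of 0.5, 1 and 2, the fit found 62.7%, 92.5% and 100% of them for 24 h against the end of the night in the mature zone, and 7 of 177 calls were false. For the mature against the elongation zone it found 95.5%, 98.5% and 100%, and 10 of 206 calls were false. Only 67, 67 and 66 probe sets were changed by these sizes, far fewer than passed in the data. The adjusted threshold depends on that share, so these rates do not carry over directly.

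Alternatives were arrays centred on their medians, array weights, an intensity trend with a robust prior, a filter on dim probe sets, the compared groups alone, a replicate block and leaving out each array in turn.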

Additional observations from a re-analysis of the deposited data

Results flagged for a closer look

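The change of hon101 differed between zones by a test of the difference itself. At 14 h of extended night against the end of the day, the mature zone exceeded the elongation zone by 2.16 and the division zone by 2.12. At 24 h against the end of the night the values were 1.64 and 1.08.

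The 3 bright his1 probe sets were picked out by the same test at 14 h. Zm.6393.1.A1_x_at had 1.12 against the elongation and 0.98 against the division zone, Zm.6393.2.S1_x_at had 1.18 and 1.02, and Zm.6393.4.S1_x_at had 1.25 and 1.19. At 24 h Zm.6393.1.A1_x_at had 0.63 and 0.57, Zm.6393.2.S1_x_at had 0.64 and 0.70, and Zm.6393.4.S1_x_at had 0.84 against the elongation zone. Of these values, 0.57 lies inside the range of the reporter probe sets in its comparison, -0.23 to 0.69. No dim his1 probe set passed such a test. All these values rest on the same mature arrays, and the comparisons with the elongation and division zones are not independent.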

How the results depend on the processing

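No difference of the members changed direction under an alternative where it passed in either fit. Some that passed in neither fit did change sign. With arrays left out, Zm.6393.4.A1_x_at at 14 h against the end of the day in the elongation zone ran from -0.19 to 0.2. Centring the arrays on their medians moved the mature zone up against the elongation zone, so that hon101 had -0.63 in that step, Zm.6393.2.S1_x_at -0.71 and Zm.6393.4.A1_x_at 0.71, with the same calls. With centred arrays the difference of hon101 at 24 h in the division zone passed (-0.32). With array weights hon101 passed at 14 h in the elongation zone (-0.30), as did Zm.6393.2.S1_x_at (-0.26), and the change of hon101 at 24 h differed between the elongation and division zones (-0.74). With the compared groups alone hon101 passed at 14 h in the division zone (-0.19), and Zm.6393.2.S1_x_at did not pass at 24 h in the mature zone (0.30, adjusted p = 0.19). Also lost there were Zm.6393.4.S1_x_at at 14 h in the mature zone (0.98, adjusted p = 0.081) and against the elongation zone (1.25, 0.051), Zm.6393.1.A1_x_at at 24 h between the mature and division zones (0.57, 0.065), and at 14 h in the mature zone Zm.6393.4.A1_at (0.29, 0.27) and Zm.6393.4.A1_x_at (0.37, 0.13). Zm.6393.4.A1_a_at was lost at 24 h there (-0.35, 0.061). The F test of hon101 in the division zone passed with centred arrays (adjusted p = 0.025) and with array weights (0.0014). Of the pairs of his1 probe sets in the step from division to elongation, 2 passed without the end of the day and 0 without 14 h or without 24 h, in place of 1.

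With each array left out in turn, Zm.6393.2.S1_x_at ranged at 24 h from -0.53 to -0.27 in the division zone, from -0.36 to -0.30 in the elongation zone and from 0.19 to 0.43 in the mature zone. The difference of the change of hon101 at 24 h between elongation and division ranged from -0.74 to -0.44. Array weights gave 9009 probe sets in place of 5762 at 24 h in the division zone. For the change at 24 h between elongation and division, 634 probe sets passed, 3647 with array weights, 1494 with the compared groups alone and 332 to 422 when any of 5 arrays, in EN or 24 h groups, was left out. At 14 h it was 1151, 3736 with array weights, 2722 with the compared groups alone and 625 without either array of the elongation zone at the end of the day.

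Deviations of same-numbered arrays correlated at -0.35 to 0.12 between times and at -0.13 to 0.21 between the mature and elongation zones. At 6 h the latter were 0.21 and 0.20. The labels do not say whether same-numbered arrays share plants, and so few arrays cannot settle it. The numbers were not used to pair these samples in the main fit. Between the elongation and division zones all 3 pairs were over 0.1 at EN (0.21 to 0.33), 14 h (0.14 to 0.46) and 24 h (0.22 to 0.42), but not at ED or 6 h. A paired fit of these zones, chosen after seeing the data, changed no call of the members at EN, 14 h or 24 h, nor in the mean step, and gave hon101 -1.08 at 24 h. At 6 h Zm.6393.4.A1_at passed in it (0.17, adjusted p = 0.018). Over all fits with a replicate block, with the number as a fixed term or time and number as a random or fixed block (the last 2 chosen after seeing the data), 172 of 175 values stayed on their side of the threshold. hon101 had -0.83 in the step to the mature zone with the replicate block. The 3 that changed were Zm.6393.4.A1_at at 14 h in the mature zone with the number as a fixed term (0.29, adjusted p = 0.059) and, between the mature and division zones with the random block only, Zm.6393.4.S1_x_at at 24 h (0.72, adjusted p = 0.039) and Zm.6393.4.A1_x_at at 14 h (0.43, adjusted p = 0.044). The cause of the changes was not tested.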

Other observations

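Named genes whose 15 group means followed those of the members were ranked by Pearson correlation among 1185 named probe sets. For hon101 the likest were vdac2, a voltage-dependent anion channel of the outer mitochondrial membrane (r = 0.889), HD6 (0.883), gtc102, a subunit of the histone chaperone FACT (0.872), HMG I/Y-2, a high mobility group gene (0.872), and meg6 (0.862). Within the division zone gtc102 had r = -0.255 and within the elongation zone -0.818, against 0.869 within the mature zone. By Spearman correlation vdac2 ranked 26 for hon101.

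For each of the 3 bright his1 probe sets the other 2 ranked 1 and 2 and vdac2 ranked 3, with r of 0.917 to 0.948 for vdac2. hag101, the histone acetyltransferase also called gcn5, had r of 0.905 for Zm.6393.1.A1_x_at and Zm.6393.2.S1_x_at and 0.939 for Zm.6393.4.S1_x_at. Further genes among the 5 likest other genes of at least 1 of them were dehydrin3, frk1 (a fructokinase), PIS, LOC542160 and LOC542182. hon101 ranked 139 to 175 for these probe sets. For Zm.6393.4.A1_at the likest was atGRF2 (0.985) and for Zm.6393.4.A1_a_at grp1 (0.945). Group means share zones and times, so these are descriptions.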
